A study of Bos taurus with 16 samples.

Results

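A set of 136 genes had more transcripts after LPS treatment in every one of 8 cattle, and this report describes how far they rose, from which starting level, and how Taurine and Indicine animals compared. They were found among 12968 genes that had at least 1 CPM (a gene's count per 1000000 counts on all genes of its library) in at least 4 of the 16 libraries, of 27607 genes listed. For each gene and animal the difference d was taken, which is log2(CPM + 0.5) in LPS treated minus log2(CPM + 0.5) in unstimulated cells, so that a d of 1 is close to a doubling for all but the lowest levels. A gene belonged to the set when d was above 0 in all 8 animals and its mean was at least 1. The size of the rise therefore chose the genes, and it is described here without a test. The deposited tables list genes by Ensembl identifier and do not pair them with symbols, and the reference table matched 0 of the 27607 identifiers. The genes are therefore described by their values, and only 4 are given by identifier.

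The libraries were made from monocyte-derived macrophages (MDMs), which are adherent blood monocytes grown for 11 days into macrophages in medium with fetal bovine serum. Cells of 4 Taurine animals (numbered 1, 3, 20 and 50, Holstein in the paper) and of 4 Indicine animals (2, 5, 6 and 7, Gir in the paper) were kept in medium alone or with 100 ng/ml LPS for 48 hours. All 8 were young and healthy animals that had been kept in stables, and each gave 1 unstimulated and 1 LPS treated library. The macrophage identity of the cultures was not checked against marker genes here, since no marker could be matched to an identifier. A library held 7362247 to 10296054 counts on genes, so that 1 CPM stood for 7.36 to 10.3 counts.

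LPS is a glycolipid from the outer surface of gram-negative bacteria. Macrophages sense it through a receptor complex of Toll-like receptor 4, MD-2 and the co-receptor CD14, whose adaptors MyD88 and TRIF activate NF-κB and interferon regulatory factors. The transcripts raised early include those of cytokines and chemokines, and many are held down again within hours by induced inhibitors of the same pathway. In libraries from whole cultures, more cells of a type and more RNA per cell cannot be told apart.

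The mean rise of the 136 genes had a median of 1.60 on the log2 scale, which is 3.04-fold, and the middle 50% of the genes lay between 1.28 and 2.31. The smallest mean rise was 1.00 and the largest 4.25, or 19.1-fold. Most of the set rose moderately, with 56 genes under 1.5, 39 from 1.5 to under 2, 32 from 2 to under 3 and 9 at 3 or more. A rise of at least 1 in each single animal was seen in 27 genes, whose mean rises had a median of 2.46. At the other end, 57 genes had at least 1 animal with d under 0.5, and 11 genes had 1 under 0.1. The spread between animals was wide for the typical gene, with a median SD of d of 0.79 over 8 animals and a median distance of 2.33 between the animal with the smallest and the animal with the largest rise.

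The animals differed in how far the set as a whole rose. The median d of the 136 genes was 1.28 in Taurine animal 1, 2.07 in animal 3, 1.503 in animal 20 and 2.19 in animal 50. It was 2.05 in Indicine animal 2, 1.90 in animal 5, 0.73 in animal 6 and 1.53 in animal 7. Indicine animal 6 had the weakest rise of the 8 animals and the smallest d for 81 of the 136 genes, while Taurine animals 50 and 3 and Indicine animal 2 had the largest d for 37, 31 and 36 genes. The unstimulated cells of Indicine animal 6 also held the largest share of counts on these genes, 3.05%, against 1.38% to 2.94% in the other 7 animals. With LPS the same animal had the smallest share, 4.44%, against 5.47% to 9.22% in the others. Whether its unstimulated culture contributed to its small rise was not tested.

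**Figure D1:**
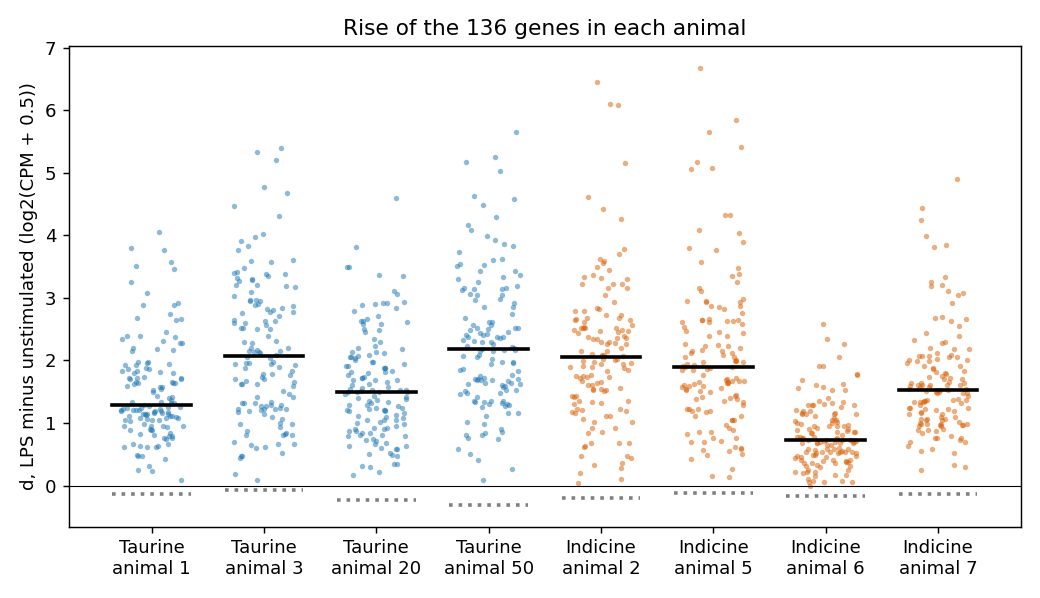
Rise d (LPS treated minus unstimulated, log2(CPM + 0.5)) of the 136 genes in each of 8 animals, 1 point per gene, with Taurine in blue and Indicine in orange. Black bars are the medians of the 136 genes, from 0.73 in Indicine animal 6 to 2.19 in Taurine animal 50, and dotted grey bars are the medians of all 12968 genes, which lie between -0.31 and -0.07.

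With library totals as the scale, most other genes fell slightly, since the median d of all 12968 genes lay between -0.31 and -0.07 in the 8 animals. Relative to that median, the set rose by 0.89 in Indicine animal 6 and by 1.42 to 2.49 in the other 7 animals. A total of 323 genes had d above 0 in all 8 animals and 187 of these had a mean under 1, while 1719 genes had d below 0 in all 8. The mirrored rule, a fall in all 8 animals with a mean of at most -1, found 197 genes. With TMM library sizes, which set the bulk of genes near 0 (medians of all genes between -0.06 and 0.01), 170 genes met the rule, including all 136, and 128 met the mirrored rule.

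The gene with the largest mean rise was ENSBTAG00000037768, at 4.25 ± 1.36 on the log2 scale (SD, n = 8). Its levels in unstimulated Taurine MDMs were 26.7, 0.369, 3.88 and 1.56 CPM in animals 1, 3, 20 and 50, and with LPS 309, 9.94, 31.0 and 45.8 CPM. In Indicine animals 2, 5, 6 and 7 it went from 1.83, 6.10, 39.9 and 3.38 CPM to 204, 332, 243 and 115 CPM. Animals 1 and 6 stood well above the others of their breed before LPS. The lowest start, 0.369 CPM in animal 3, rests on 3 counts.

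ENSBTAG00000021462 had the next largest mean rise, 3.75 ± 0.865 (SD, n = 8). In Taurine animals 1, 3, 20 and 50 its level was 36.4, 5.29, 13.4 and 32.8 CPM unstimulated and 350.3, 86.1, 334 and 1082 CPM with LPS. In Indicine animals 2, 5, 6 and 7 it was 6.21, 38.7, 11.95 and 22.4 CPM unstimulated and 128, 434, 62.6 and 209 CPM with LPS. Every LPS treated library was above every unstimulated library, and the breeds overlapped in both conditions. Neither gene was called between the breeds. edgeR's quasi-likelihood test gave the first a log2 fold change of Taurine over Indicine of -1.30 (standard error 0.85, adjusted p = 0.448) in LPS treated MDMs, and without Taurine animal 1 it was -2.94 (adjusted p = 0.0160, from 0.0160 to 0.637 over its 13 alternatives). The second had 1.14 (standard error 0.76, adjusted p = 0.456) in the same test, which was 0.23 without Taurine animal 50 and 1.82 without Indicine animal 5 (adjusted p from 0.236 to 0.913 over its 13 alternatives).

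**Figure D2:**
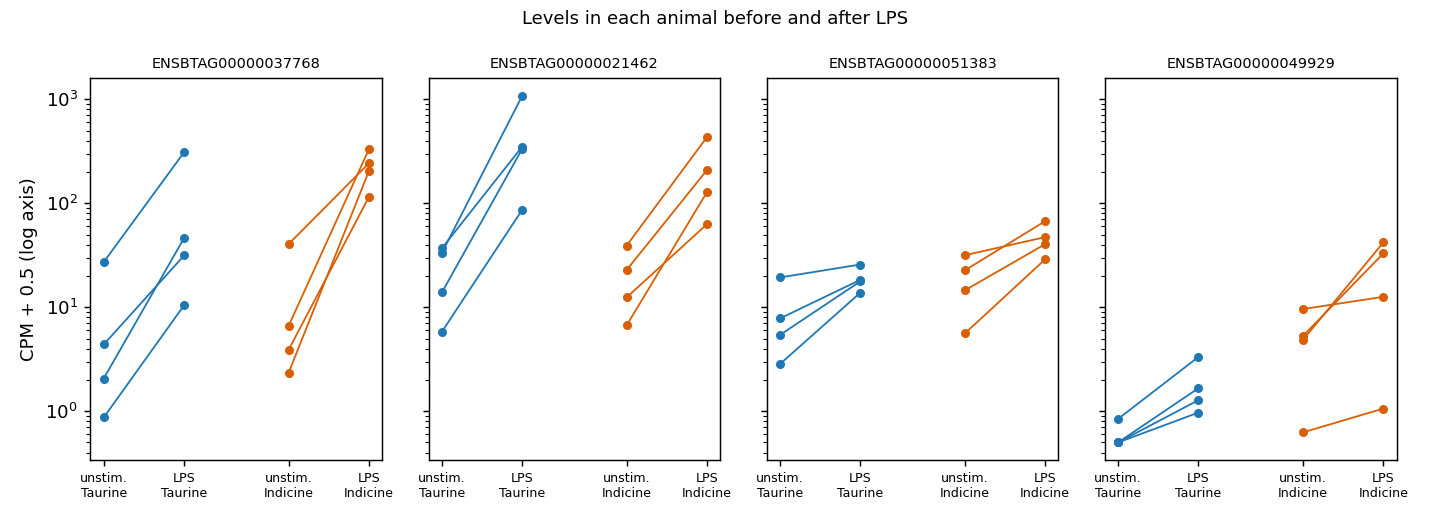
Levels of 4 genes of the set in each animal before and after LPS, as CPM + 0.5 on a log axis, with 1 line per animal, Taurine in blue and Indicine in orange. All 32 lines go up, as the rule requires; in the panels of ENSBTAG00000051383 and ENSBTAG00000049929 the LPS treated Taurine levels lie at the low end (13.3 to 25.3 CPM and 0.469 to 2.82 CPM).

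Because the same 8 animals chose the genes, the rise was also looked at in animals that had no part in the choice. The rule was applied to 7 animals, and the genes it gave were then read in the animal left out. It gave between 129 and 161 genes. With Taurine animal 1, 3, 20 or 50 left out, 97.1%, 96.3%, 97.2% and 97.7% of the genes chosen on the other 7 had d above 0 in that animal, where 32.4%, 42.4%, 25.2% and 24.6% of all genes did. With Indicine animal 2, 5, 6 or 7 left out, the shares were 97.7%, 99.2%, 86.3% and 97.1%, where 38.5%, 38.1%, 29.7% and 34.5% of all genes had d above 0. So in each of the 8 animals nearly all genes chosen elsewhere were raised, with Indicine animal 6 lowest. The median d in the animal left out was 0.67 for animal 6 and between 1.26 and 2.21 for the other 7.

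**Figure D3:**
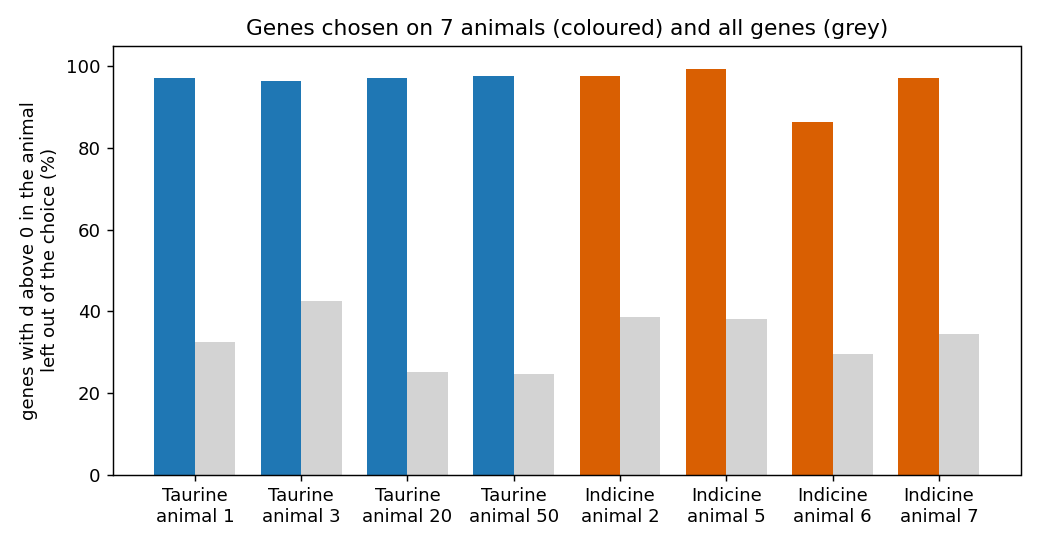
Percentage of genes with d above 0 in an animal that was left out of the choice, for genes chosen on the other 7 animals (blue for Taurine, orange for Indicine) and for all genes that passed the level filter (grey). The coloured bars stand between 86.3% and 99.2% and the grey bars between 24.6% and 42.4%.

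The same was done across the breeds, which share no animal. Choosing on the 4 Taurine animals alone gave 187 genes, of which 137 (73.3%) had d above 0 in all 4 Indicine animals, against 4.78% of all genes. A mean d of at least 1 in Indicine was reached by 104 of them (55.6%), against 1.28% of all genes. The median mean d was 1.52 in the breed used for the choice and 1.18 in the other. Choosing on the 4 Indicine animals alone gave 149 genes, of which 115 (77.2%) had d above 0 in all 4 Taurine animals, against 7.67% of all genes, and 102 (68.5%) reached a mean of 1 in Taurine, against 1.49%. Here the median mean d was 1.61 in Indicine and 1.54 in Taurine. Of the 187 genes chosen in Taurine none fell in all 4 Indicine animals (0 genes, against 25.9% of all genes), and 3 of the 149 genes chosen in Indicine fell in all 4 Taurine animals (against 33.6%).

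The 136 genes came from the whole range of expression and were on the low side before LPS. The rule used the same libraries and favours a low unstimulated and a high LPS treated value, so these levels are a description. Their mean unstimulated level had a median of 3.61 on the log2(CPM + 0.5) scale, where all 12968 genes had 4.29, and the middle 50% lay between 2.12 and 5.69. With LPS the median of the set was 5.53 and that of all genes 4.12. In terms of rank, the median gene of the set stood above 38.6% of all genes before LPS and above 74.1% after it. When all genes were put into 4 classes of 3242 genes by unstimulated level, 47 of the 136 genes (34.6%) were in the lowest class, 38 (27.9%) in the next, 17 (12.5%) in the one above and 34 (25.0%) in the highest. The set was thus thinnest in the class just above the middle.

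Within the set, the rise is set beside the starting level as a description only, since the rule used both. The median mean rise was 1.62, 1.69, 1.57 and 1.55 from the lowest to the highest class, while the largest mean rise was 4.25, 3.75, 3.27 and 2.76 in the same order. Spearman's rho between starting level and mean rise was -0.068 over the 136 genes, a description in which both values hold the same unstimulated libraries. Taking the start in one breed and the rise in the other, where the rise in both breeds still chose the genes, rho was -0.12 for the start in Taurine and -0.0043 for the start in Indicine. A mean unstimulated level under 1 CPM was found in 11 genes and one above 100 CPM in 24, with all others in between. The median mean rise was 1.63 for the 11, 1.57 for the 24 and 1.62 for those in between. For the 88 genes with at least 10 counts in all 16 libraries it was 1.57.

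**Figure D4:**
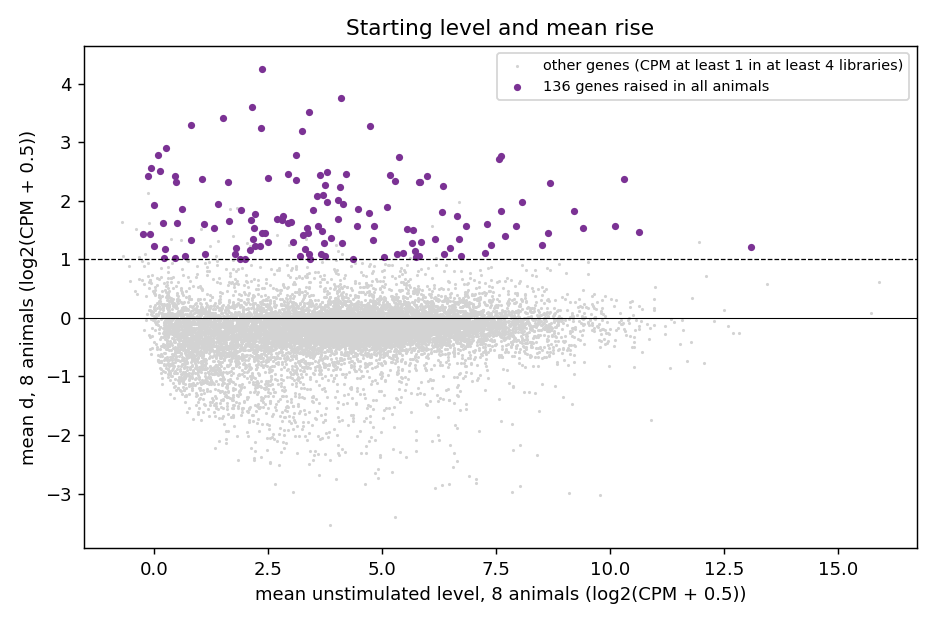
Mean unstimulated level (log2(CPM + 0.5), 8 animals) against mean d for the 136 genes (purple) and the other genes that passed the level filter (grey), with the mean rise of 1 that the rule requires as a dashed line. The set runs from -0.24 to 13.1 on the level axis, and grey points above the dashed line are genes that did not rise in all 8 animals.

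Levels of these genes varied more between animals than those of a typical gene, before as well as after LPS. The rule used the same libraries and the 8 animals are of both breeds, so this is a description. The SD of the unstimulated level over 8 animals had a median of 0.93 in the set and 0.40 over all genes, and in LPS treated MDMs it was 0.86 and 0.41. Animals with a low start of the set were Taurine animal 3 and Indicine animal 2, whose median unstimulated levels were 2.90 and 2.95 on the log2 scale, and Taurine animal 1 was highest with 4.48. In the other animals it was 3.82 in Taurine animal 20, 3.96 in animal 50, and 3.56, 3.98 and 3.45 in Indicine animals 5, 6 and 7. With LPS the medians lay between 5.27 and 6.57 in Taurine and between 4.76 and 5.59 in Indicine. The order of the genes by d was also compared between animals, as a description over values that chose the genes. Spearman's rho of d over the 136 genes between pairs of animals had a median of 0.52 within Taurine (6 pairs), 0.50 within Indicine (6 pairs) and 0.36 between the breeds (16 pairs), all positive, from 0.15 to 0.70.

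A few abundant genes carried most of the counts of the set. The summed share of the 136 genes went from 2.27% ± 0.69 of the counts on genes to 7.16% ± 1.55 in Taurine and from 2.12% ± 0.69 to 5.78% ± 1.10 in Indicine (SD, n = 4 each). This was 3.34 ± 1.02 times in Taurine and 3.01 ± 1.21 times in Indicine. The ranges of both breeds overlapped. By mean CPM after LPS, 3 genes held over 50% of the set's counts, and the most abundant one held 32.1%. That gene had 12035, 6349, 11686 and 8606 CPM in unstimulated Taurine animals 1, 3, 20 and 50 and 18512, 19102, 14483 and 20947 CPM with LPS. In Indicine animals 2, 5, 6 and 7 it went from 6371, 5872, 15245 and 8165 CPM to 27071, 27547, 17132 and 21080 CPM. Indicine animal 6 had the highest level before LPS and the lowest but one after it, and the mean rise was 1.21 ± 0.78 (SD, n = 8). The next most abundant gene went from a mean of 1540 to 8136 CPM, and it was higher in each LPS treated Taurine library (7084 to 19510 CPM) than in each LPS treated Indicine library (2793 to 4997 CPM), with a log2 fold change of 1.75 (standard error 0.37, edgeR's adjusted p = 0.0154). Its call was lost without Indicine animal 2 or 7 (highest adjusted p 0.0548).

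Both breeds raised the set, as the rule requires, and their difference in the size of the rise was small beside the spread between animals. Genes that rose in 1 breed alone could not enter the set, so breed differences of that kind are outside this description. The median d per animal was 1.76 ± 0.44 in Taurine and 1.55 ± 0.59 in Indicine (SD, n = 4 each). Without Indicine animal 6, the difference of 0.21 turned to -0.065 for the same 136 genes, and to -0.039 for the 161 genes that the rule gave on the other 7 animals. In single genes the mean rise was larger in Taurine for 86 of 136 (63.2%) and larger in Indicine for 50, where 46.3% of all genes had the larger value in Taurine. For 72 genes the breeds differed by less than 0.5, for 17 the mean rise was at least 1 larger in Taurine and for 8 at least 1 larger in Indicine. A mean rise of at least 1 was reached in Taurine alone by 24 genes and in Indicine alone by 11, and by all others in both breeds.

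The difference in response was tested for each gene in 1 model over all 16 libraries with the animal as a block, by edgeR's quasi-likelihood test with an FDR under 0.05 and an absolute log2 difference of at least 1. It called 0 of the 136 genes and 0% of all 12968, and the lowest adjusted p in the set was 0.443. The rule chose genes by large values of the same d, which most of all genes did not have. The shares that follow are therefore a description and no test of the set. An unadjusted p under 0.05 was reached by 34 of the 136 (25.0%), where 8.28% of all genes reached it, and 29 of the 34 had the larger rise in Taurine. DESeq2's Wald test with the same terms called 3 of the 136, all larger in Taurine, and 16 of all genes (0.123%). The 4 Taurine values of d lay above the 4 Indicine values for 12 genes (8.82%; 1.95% of all genes) and below them for 0 (1.84% of all genes), where 3.79% of all genes had no overlap in either direction. Without the replicate block 0 genes were called and 4 of the 136 had an unadjusted p under 0.05, against 1.92% of all genes. The excess of larger rises in Taurine moved with single animals. The fitted difference was above 0 for 87 of 136 genes, for 69 without Taurine animal 50 and for 72 without Indicine animal 6. An unadjusted p under 0.05 was reached by 16 of the 136 without Taurine animal 50 (667 of all 12784 genes). Without Indicine animal 6 it was reached by 32 (1992 of all 12911 genes). The larger rise was in Taurine for 13 of the 16 and for 19 of the 32.

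The largest difference in favour of Taurine was in a low gene, which rose by 3.89 ± 0.55 in Taurine and 1.68 ± 0.76 in Indicine (SD, n = 4 each). Its unstimulated level was 0.240 to 1.37 CPM in Taurine and 0.102 to 0.846 CPM in Indicine, and with LPS it was 11.2 to 20.5 CPM in Taurine and 1.46 to 5.20 CPM in Indicine. The breeds overlapped before LPS and were apart after it, and edgeR's adjusted p was 0.00310 for the LPS treated level but 0.573 for the difference in response. The largest difference the other way was in a gene that rose by 4.59 ± 1.84 in Indicine and 2.45 ± 2.24 in Taurine (SD, n = 4 each). In Taurine animals 1, 3, 20 and 50 its d was 1.26, 5.33, 0.21 and 2.99, and in Indicine animals 2, 5, 6 and 7 it was 5.15, 6.68, 2.27 and 4.25, so that the breeds overlapped (adjusted p = 0.647 by edgeR).

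**Figure D5:**
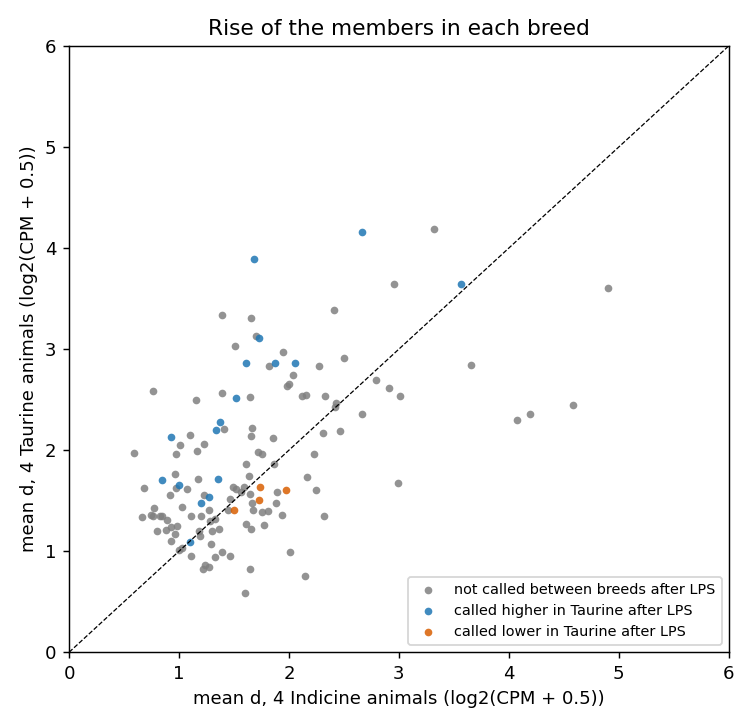
Mean d of each of the 136 genes in 4 Indicine (horizontal) and 4 Taurine animals (vertical), on the log2(CPM + 0.5) scale, with a dashed line where both are equal. Colour marks genes that edgeR called between the breeds in LPS treated MDMs, 17 higher in Taurine (blue) and 4 lower (orange); 86 points lie above the line and 50 below.

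The levels of both breeds were compared within each condition, and more genes were called with LPS than without it in the set and among all genes alike. With LPS, the quasi-likelihood test of edgeR on the 8 libraries called 21 of the 136 genes (15.4%), where it called 7.34% of 11986 genes tested. Higher in Taurine were 17 (12.5%; 3.26% of all genes) and lower in Taurine 4 (2.94%; 4.08% of all genes). The fitted level was higher in Taurine for 96 of the 136 genes (70.6%), against 52.1% of all genes, with a median log2 fold change of 0.40 in the set and 0.02 over all genes. An unadjusted p under 0.05 was reached by 42 (30.9%), where 21.0% of all genes reached it. DESeq2's Wald test called 29 of the 136 and 9.31% of all genes. The number called by edgeR fell to 9 (6.62%) without Indicine animal 2, 12 (8.82%) without animal 6 and 10 (7.35%) without animal 7, and all of these were among the 21. The same fits called 5.81%, 6.85% and 6.24% of all genes, near the share of the set when both directions are counted. For genes higher in Taurine the shares stayed apart, with 5.88%, 8.09% and 6.62% of the set against 2.67%, 3.09% and 2.81% of all genes. Lower in Taurine was 1 gene of the set in each fit, against 385, 461 and 422 of all genes. In every one of the 8 fits without 1 animal 7 of the 21 stayed called, all of them higher in Taurine. Without Taurine animal 50, the number with a higher level in Taurine fell to 72 of 136. The median log2 fold change of the set fell to 0.08 in that fit, with 0.01 over all genes. The libraries of a breed did not overlap with those of the other for 23 of the 136 genes (16.9%), close to the 16.1% over all genes, with 19 higher in Taurine (14.0%; 9.09% of all genes) and 4 lower (2.94%; 7.05%).

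In unstimulated MDMs, 120 of the 136 genes passed the filter of at least 1 CPM in at least 4 of 8 libraries. edgeR called 1 of them (0.833%; 0.318% of 12565 genes tested), which was higher in Taurine (0.0796% of all genes were called higher and 0.239% lower), and 28 (23.3%) had an unadjusted p under 0.05, where 11.7% of all genes did. DESeq2's Wald test called 8 (6 higher and 2 lower in Taurine) where it called 2.27% of all genes, and edgeR in 1 model over all 16 libraries called 3 of 136 where it called 1.16%. The breeds did not overlap for 11 of the 136 (8.09%, where 7.86% of all genes did not), with 7 higher in Taurine (3.18% of all genes) and 4 lower (4.67%). The gene that edgeR called had 69.6, 23.4, 23.2 and 38.5 CPM in unstimulated Taurine animals 1, 3, 20 and 50 and 3.40 to 4.61 CPM in the 4 Indicine animals (log2 fold change 3.18, standard error 0.37, edgeR's adjusted p = 0.0135). With LPS it had 43.1 to 99.4 CPM in Taurine and 5.14 to 30.4 CPM in Indicine, where 30.4 CPM was the value of animal 2 and the other 3 were at 6.93 CPM or less. Its mean rise was 1.09 ± 0.55 in Taurine and 1.10 ± 1.16 in Indicine (SD, n = 4 each). Without Indicine animal 2, 6 or 7 the test called 0 genes of the set in unstimulated MDMs, and 0.228%, 0.132% and 0.0938% of all genes.

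The 17 genes called higher in LPS treated Taurine MDMs are described here by start and rise. Since the LPS treated level is the sum of both, the choice itself favours a higher start and a larger rise in Taurine. All 17 had a higher mean level in Taurine before LPS as well, by a median of 1.17 on the log2 scale, and 16 of the 17 had the larger mean rise in Taurine, by a median of 0.86. Of the 374 genes outside the set that were called higher in the same test, 99.2% had the higher start and 91.4% the larger rise in Taurine, so these shares are not particular to the set. Of the 15 tested in unstimulated MDMs 10 had an unadjusted p under 0.05 there, and 8 of the 17 had one for the difference in response, where 30.7% and 28.1% of the genes outside the set did. Their fitted log2 fold changes after LPS ran from 1.06 to 7.03 with a median of 2.18. The largest value belonged to a gene in which 1 Taurine animal departed from the other 3, with 1.16 CPM in LPS treated animal 1 and 764, 3417 and 2756 CPM in animals 3, 20 and 50, while Indicine libraries had 8.05 to 19.2 CPM. Animal 1 was thus below every Indicine animal in it, and its adjusted p was 0.0246 in edgeR's test, with the call lost without any 1 of the 4 Indicine animals.

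The 4 genes called lower in LPS treated Taurine MDMs had fitted log2 fold changes from -4.09 to -1.35. By mean level all 4 were lower in Taurine before LPS too, as were 99.4% of the 485 genes outside the set that were called lower. None of the 4 stayed called in all 8 fits without 1 animal, each in 2 or 3 of them. The 2 with the smallest p are given by identifier, chosen after their values had been seen. ENSBTAG00000051383 had 7.30, 2.34, 4.91 and 18.8 CPM in unstimulated Taurine animals 1, 3, 20 and 50 and 17.8, 13.3, 17.2 and 25.3 CPM with LPS. In Indicine animals 2, 5, 6 and 7 it had 5.09, 31.1, 22.1 and 14.0 CPM unstimulated and 28.4, 46.7, 66.8 and 40.0 CPM with LPS. Unstimulated levels overlapped and LPS treated levels did not, with a log2 fold change of -1.35 (standard error 0.32, edgeR's adjusted p = 0.0283). The call was lost without Indicine animal 5 or 6, without Taurine animal 1, 3 or 20 and in 1 model over all 16 libraries, with adjusted p between 0.00129 and 0.170 over its 13 alternatives. The log2 fold change lay between -1.58 and -1.08 in these.

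ENSBTAG00000049929 was at the detection limit in Taurine before LPS, with 3 counts in animal 1 (0.342 CPM) and 0 in animals 3, 20 and 50, which allows up to 0.369, 0.342 and 0.360 CPM (3 counts, counting error only). With LPS it had 2.82, 1.16, 0.469 and 0.777 CPM in these 4 animals. Indicine animals 2, 5, 6 and 7 went from 4.79, 0.124, 9.10 and 4.35 CPM to 32.4, 0.559, 12.1 and 41.5 CPM. Indicine animal 5 was as low as the Taurine animals in both conditions, so the breeds overlapped, and the log2 fold change after LPS was -4.09 (standard error 1.01, edgeR's adjusted p = 0.0339). The call was lost without Indicine animal 2 or 7 and without Taurine animal 3, 20 or 50, with adjusted p between 0.00190 and 0.0918 over its 13 alternatives. The log2 fold change was between -4.04 and -3.57 in the fits that lost the call.

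At the limit of the rule, the pair of genes just inside had mean rises of 1.00 and 1.00, with single animals from 0.21 to 2.33 and from 0.29 to 1.67. The pair just outside rose in all 8 animals with means of 0.98 and 0.96, and with single animals from 0.56 to 1.49 and from 0.30 to 2.26. Another 22 genes had a mean rise of at least 1 but rose in 7 of 8 animals, with a median d of -0.18 in the remaining one. That animal was Indicine animal 6 for 12 of the 22 genes, and Taurine animal 1 or Indicine animal 5 for 0.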

How the data were processed

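Per the labels and the paper, the authors made stranded poly(A) libraries, aligned read pairs with STAR 2.6.0c, kept uniquely mapped reads and counted them per Ensembl gene with HTSeq 0.10.0. The deposited values are raw counts without normalization or filter. The paper names the taurine assembly ARS-UCD1.2, for both breeds, and the submitters' processing notes list UMD3.1, and which strand setting was used for counting is not given in the sources used here. The 5 counters of reads given to no gene were left out; 1 of them repeated the value of another, and with it taken once they were 18.4% to 23.2% of the sum with the counts.

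CPM, d and the rule were computed from these counts with Python 3.11.15. Breed contrasts were fitted in R 4.3.3 with edgeR 4.0.16 (TMM, glmQLFit and glmQLFTest) on genes reaching 1 CPM in 4 or more libraries of the fit, with Benjamini-Hochberg adjustment over all genes tested, and a gene was called when its FDR was below 0.05 and its log2 fold change was 1 or more in size. DESeq2 1.42.0 was an alternative. The standard error is the log2 fold change over the square root of F. The scripts were tested on simulated data. Libraries were paired by the animal number in their titles. Deviations from the group means correlated between both libraries of an animal with r from 0.65 to 0.84 in Taurine. In Indicine animals 2, 5, 6 and 7 r was 0.03, 0.20, 0.23 and 0.35, so the pairing is less visible in the values there.

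The genes and lists were chosen with earlier results of these data known. The reference table (ARS-UCD2.0, 37063 genes) matched 0 identifiers, so the planned symbol lists, cell type markers, and pooled LPS test of the lists were not run. Without symbols the naming rule gave the 2 genes that rose most by mean d, and the 2 genes called lower in Taurine with the smallest p were added after their values were seen. Values of 1 library per animal and stimulus were available, so p-values measure the spread between these animals.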

Additional observations from a re-analysis of the deposited data

Results flagged for a closer look

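In 36 groups of 4 animals, the gap of the most distant animal to its neighbour was divided by the range of the group, for 6 summaries of the set and for 3 values of each gene given by identifier. Dixon's 95% limit was passed in 4 groups. By chance it flags about 1 in 20 groups if the values are normally distributed, which was not checked. All 4 were groups of CPM that were not put on a log scale. ENSBTAG00000037768 had 39.9 CPM in unstimulated Indicine animal 6, where the other 3 Indicine animals had 1.83 to 6.10 CPM. The same gene had 26.7 CPM in unstimulated Taurine animal 1, where the others had 0.369 to 3.88 CPM, and 309 CPM in the LPS treated cells of animal 1, where the others had 9.94 to 45.8 CPM. ENSBTAG00000049929 had 0.342 CPM in unstimulated Taurine animal 1 and 0 counts in the other 3. With 3 values at 0 any count above 0 passes this limit, and the value rests on 3 counts, within what 0 counts allow in the other animals (0.342 to 0.369 CPM), so it does not set animal 1 apart.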

How the results depend on the processing

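The rule gave between 114 genes (pseudocount 2) and 170 (TMM or DESeq2 size factors), and between 129 and 161 with 1 animal left out, against the number reported. The difference between the breeds in the median rise lay between -0.039 (without Indicine animal 6) and 0.41 with 1 animal left out and the genes chosen again, between -0.065 (without the same animal) and 0.37 with the same genes kept, which was added after seeing the data, and between 0.18 and 0.26 under the other settings. Genes of the set called between the breeds in LPS treated MDMs were 21. With 1 animal left out they lay between 9 (6.62%, 5.81% of all genes) and 24 (17.6%, 7.58% of all genes). In the other settings they lay between 14 (1 model over all 16 libraries, 737 of 12968 genes) and 29 (DESeq2's Wald test, 1116 of 11986 genes). In unstimulated MDMs 1 gene was called (40 of all genes), 8 by DESeq2 (285) and 3 from 1 model over all 16 libraries (150). With 1 animal left out it was between 0 and 2, where 0.0938% to 0.381% of all genes were called. For the difference in response, edgeR called 0 of the set under every setting tried and DESeq2 called 3. Without the replicate block, that is with the 2 libraries of an animal taken as unpaired, edgeR also called 0 genes, and 4 genes had an unadjusted p under 0.05 (1.92% of all genes) in place of 34.

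Among the genes given by identifier, the sign turned only in values that were not called. ENSBTAG00000037768 turned in unstimulated MDMs to 0.98 without Indicine animal 6 (from -2.78 to 0.98 with 1 animal left out). ENSBTAG00000021462 had 0.04 in unstimulated MDMs and -0.27, -0.15, -0.28 and -0.22 without Indicine animals 2 and 6 and Taurine animals 1 and 50 (up to 0.61). ENSBTAG00000051383 had a difference in response of -0.09, which was 0.16 and 0.26 without Indicine animal 2 and Taurine animal 50 (from -0.43 to 0.26). The counts by symbol list were not run.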
